A study of Mus musculus with 10 samples.

Results

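Thymic tumours that arise from the same inherited mutation need not be alike, and the 6 tumours described here were compared with each other, gene by gene. They were advanced thymic tumours of mice homozygous for a hypomorphic mutation of Ikaros, written IkL/L, and they made up 6 of the 10 arrays of the study, chosen by their labels alone. The other 4 arrays, used here as a baseline, held unfractionated thymocytes of 3-week old mice, 2 wild type (WT) and 2 IkL/L, both on a C57Bl6 background. The labels name no treatment and give no age or background for the tumour-bearing mice. They give each tumour a number of its own but do not say that every tumour came from a different mouse. P-values below therefore measure the spread between these arrays. Each tumour was hybridized once, and both tumours and thymocytes carried the host's other cells with them.

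Ikaros, encoded by Ikzf1, is a zinc-finger DNA-binding protein of lymphoid cells that represses or activates many lymphocyte genes, and mice with too little of it develop T-cell tumours of the thymus. Thymocytes mature from double-negative cells, which lack CD4 and CD8, through a double-positive stage that carries both, to single-positive cells. Along the way they rearrange the T-cell receptor genes, so that the cells of 1 clone share 1 receptor while a normal thymus holds very many. Notch1, a receptor that drives early T-cell development, is often active in T-cell leukaemia of mice and humans.

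Transcript levels were read on MG_U74Av2 oligonucleotide arrays as 1 intensity per probe set, scaled by the authors to a common mean on each array. A floor of 16, where the lowest 20% of all values end, was applied before log2 was taken. Tests covered probe sets brighter than the median of the array on 2 or more of the 10 arrays, which left 7172 probe sets, 5476 genes by single symbols. Median intensities were 79.8 to 113.2 in the tumours and 90.6 to 105 in the thymocytes. Tumours 4 and 6 stood apart: tumour 4 had the lowest median and 24.2% of its probe sets below the floor, and tumour 6 the highest median and 15.4%. Tumour 6 also had the highest ratio of 3′ to 5′ signal of the actin control, 2.94 against 1.53 to 2.15 in the other tumours and 1.69 to 2.33 in the thymocytes. It was the only tumour on the chip lot of the thymocytes. Tumours 4 and 6 were hybridized on the same day as the thymocytes, tumours 1, 2 and 5 on a second day and tumour 3 alone on another. The part of day, lot and RNA quality in the results was not tested except where a value is given.

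All 6 tumours had T-cell transcripts. Cd3e, a chain of the T-cell receptor complex, read 3706, 4462, 4967, 4827, 3326 and 2252 in tumours 1 to 6. The 4 thymocyte arrays read 3738 to 5911, and the ranges overlapped. Summed over the 8 tested genes of a T-cell receptor and CD3 list, intensities were 39271 to 56434 in the tumours and 44302 to 51284.5 in the thymocytes. Ikzf1 itself read 151, 232, 388, 175, 232 and 185 in the tumours, 626 and 401 in WT thymocytes and 559.5 and 264 in IkL/L thymocytes. The tumours' values overlapped those of IkL/L thymocytes and lay below both WT arrays. A second Ikzf1 probe set, at 40.6 to 187, did not follow the first across the tumours (r = -0.09 over 6 arrays).

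The tumours differed more from each other than thymocyte preparations did. The median absolute log2 difference over tested probe sets was 0.318 to 0.58 for the 15 tumour pairs, with a median of 0.395. It was 0.262 and 0.302 for the pairs of thymocyte arrays of 1 genotype, and 0.276 to 0.333 for pairs of different genotype. Every tumour pair but 3 lay above all thymocyte pairs, and those 3 joined tumours 2, 3 and 5: 0.318 for 2 and 5, 0.32 for 2 and 3, and 0.332 for 3 and 5. Tumours 4 and 6 formed the most distant pair. They were hybridized on 1 day and on different chip lots, and the part of day and lot in that distance was not tested.

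**Figure D1:**
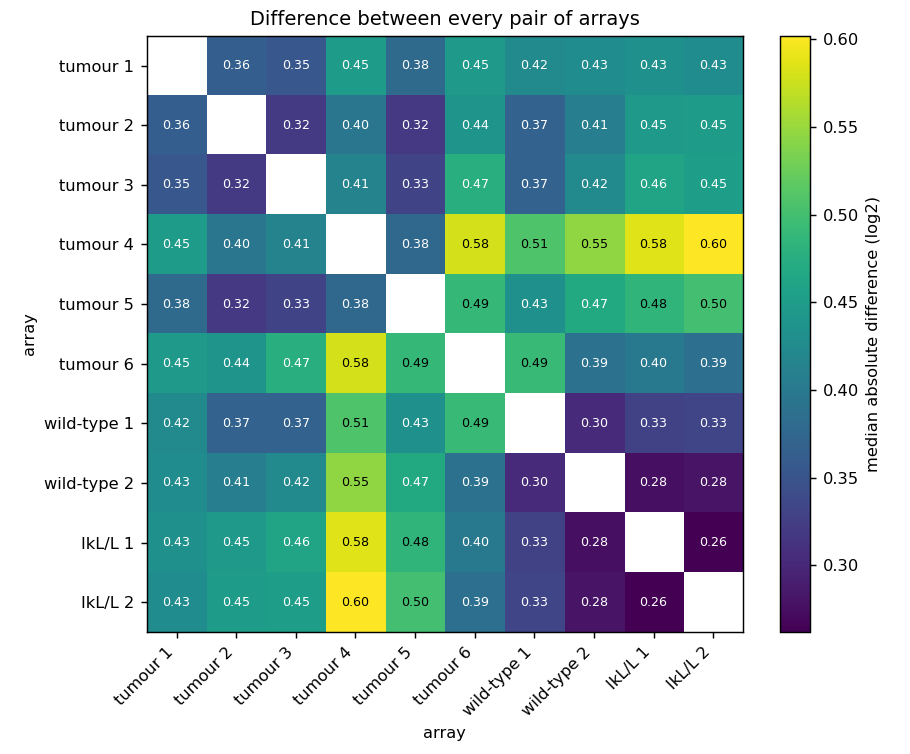
Median absolute log2 difference over tested probe sets for each pair of the 10 arrays, drawn as a grid with arrays on both axes and the value as colour and number. Tumour pairs run from 0.318 to 0.58 and pairs of same-genotype thymocytes lie at 0.262 and 0.302.

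Tumour 6 was the farthest from the other tumours, by 0.485 on average, but its mean difference to the thymocytes, with which it shared lot and day, was 0.416, no larger than that of tumour 2 at 0.418. Tumour 4 was next from the other tumours, at 0.443, and at 0.56 it lay farthest from the thymocytes. Tumours 1, 2, 3 and 5 differed from the other tumours by 0.367 to 0.398 and from the thymocytes by 0.418 to 0.472. Shares of highest values were counted over the 7172 tested probe sets, and shares of lowest values over those with fewer than 2 tumours at the floor. Tumour 6 held the highest value for 27.9% and the lowest for 21.7%, and tumour 4 the highest for 17.8% and the lowest for 23.3%. Tumour 2 held the fewest extremes, highest for 10.3% and lowest for 13.3%. Mean differences were 0.411 for the 4 tumour pairs of 1 day and 0.408 for the 11 pairs of different days (difference -0.00285, exact two-sided permutation test p = 0.983, the smallest p this design allows being 0.0167).

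The next question was which genes vary between tumours by more than thymocyte arrays of 1 genotype do. The variance over the 6 tumours was divided by the variance between arrays of 1 thymocyte genotype, pooled over WT and IkL/L. The latter was moderated across probe sets with limma, in a one-sided F test with Benjamini-Hochberg adjustment. The thymocyte arrays shared 1 day and 1 lot and the tumours did not, so the ratio holds day and lot too. In this test 29 of 7172 probe sets passed an adjusted p of 0.05, 0.404% of those tested. An unadjusted p below 0.05 was reached by 1445 probe sets, 20.1%. Those 29 held 21 genes with a single symbol and 6 probe sets without one. Their tumour values spanned at least 6.11-fold, with a median of 21.1-fold, tumours below the floor being counted at it. In 21 of the 29 the thymocyte values lay within or overlapped the range of the tumours. Such overlap was common at large: of all genes, 5.51% had every tumour above and 5.51% every tumour below the thymocytes. The denominator rests on 4 arrays: with any 1 of them left out, 2 to 4 probe sets passed. Counted by 1 probe set per gene, 20 of 5476 genes passed (0.365%). Names given as passing below refer to the test with all arrays.

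The probe set with the largest spread read a T-cell receptor variable segment, although not every such segment varied past the test. Each clone of T cells uses 1 rearranged beta chain, and the array carries probes for some variable segments. A Trbv1 probe set (94726_at) read 13096 in tumour 3 and 10390 in tumour 5, but 4.9, 8.5, 14 and 13.1 in tumours 1, 2, 4 and 6, all below the floor. The 4 thymocyte arrays lay between, at 1691, 1339, 1072 and 1136. The highest tumour was thus at least 819-fold above the other 4 (adjusted p = 0.000272), and the call was kept with any 1 tumour left out. A second probe set named Trbv1 (93105_s_at) had 16997 to 26706 in the tumours and did not vary past the test (adjusted p = 0.288). The 2 probe sets therefore disagree on this gene, and the result belongs to the first.

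Trbv13-2 singled out other tumours. Its probe set 101279_f_at read 1152, 340.3, 105, 47.9, 11067 and 264 in tumours 1 to 6 and 1571 to 2242 in the thymocytes. Tumour 5 was 9.6-fold above the next tumour and the range was 231-fold (adjusted p = 0.00321). Its other probe set (94202_at) was highest in tumour 1, at 3051, against 494, 104, 19.2, 114 and 145 in tumours 2 to 6 and 586 to 951 in the thymocytes (adjusted p = 0.00875). The 2 passed with different tumours on top, and since probe sets with the suffix f can read related family members, which segment each reads is uncertain.

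Among probe sets to which no gene could be given, 2 were also high in some tumours and near or below the floor in the rest, each in its own tumours. Probe set 93106_i_at read 0.9, 14.7 and 1.8 in tumours 1 to 3, below the floor, and 1105, 1769.9 and 5911 in tumours 4 to 6, with thymocytes at 4424 to 6777 (adjusted p = 0.000272). Probe set 96967_at read 4399 in tumour 6 alone and 3.1 to 39.8 in the other 5, with thymocytes at 436 to 613 (adjusted p = 0.00875). Trgv1, a variable segment of the gamma chain, was present throughout, at 15868, 8687, 7231, 1434, 7226 and 2896. Every tumour lay above the thymocytes' 329 to 565, and the 11.1-fold spread between tumours missed the test (adjusted p = 0.0815).

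Genes of the double-positive stage also varied widely, though not all in the same tumours. Cd8b1, the beta chain of the CD8 co-receptor, read 14805 in tumour 6, within the thymocytes' 13312 to 17497. In tumours 1 to 5 it read 1592, 4021, 3708, 1611 and 1907, all well below them. The range was 9.3-fold (adjusted p = 0.0301), and without tumour 6 the adjusted p was 0.13. Ets2, a transcription factor of the ETS family, read 306, 1099, 1282, 207, 908 and 1758 against 2326 to 2689 in the thymocytes. It was lowest in tumours 1 and 4 and highest in tumour 6 (8.51-fold, adjusted p = 0.0213; 0.06 without tumour 4).

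Cd8a, Cd4, Rag2 and Dntt had the same low tumours without passing. Cd8a, the alpha chain of CD8, read 992, 3354, 2153, 1007, 1219.8 and 3984 against 5891 to 8472 (adjusted p = 0.065). Cd4 read 286, 445, 358, 104, 362 and 845 against 1559 to 2512 (adjusted p = 0.0882). For both, tumour 6 was the highest of the tumours and still below every thymocyte array.
Rag2, a subunit of the recombinase that cuts receptor genes, read 46.4, 179, 221, 45.2, 82.4 and 165 (adjusted p = 0.0843), and its partner Rag1 2644, 2101, 3503, 1736, 1991 and 3302 (adjusted p = 0.276). Thymocytes had 808 to 978 of Rag2 and 7416 to 11020 of Rag1. Dntt, which adds bases at receptor joints, read 1099.6, 3668, 3589, 1669, 3329.8 and 4841 against 6340 to 9513 (adjusted p = 0.0939). Tumours 1 and 4 were the lowest for Cd8a, Cd4, Rag2 and Dntt. Other members of the list ran differently: Cd1d1 was lowest in tumour 5, at 111, Cd28 in tumour 3, at 43, and Cd27 had its second highest value, 1962, in tumour 1. Ly6d was highest in tumours 5 and 1, at 7003 and 5665, and lowest in tumour 2, at 435.

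Over a list of 21 genes of double-positive thymocytes, 16 were tested and 15 reached an unadjusted p below 0.05, 93.8% against 20.1% of all genes. Ets2 and Cd8b1 passed the adjusted test. The median SD between tumours was 0.90 on the log2 scale, against 0.38 over all genes, and the median between thymocyte arrays was 0.25 against 0.24. Of the 16, 10 spanned over 4-fold in the tumours, as did 14.1% of all genes. Summed intensities were 19093.5, 23449, 26922, 11981, 23471 and 42410 in tumours 1 to 6 and 61221 to 70599 in the thymocytes. In bulk tissue, fewer cells of a type and less RNA per cell cannot be told apart. Without tumour 6 the list's median SD was 0.72.

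Several other lymphoid genes passed with low values in tumours 1 and 4. Txk, a T-cell tyrosine kinase of the Tec family, read 18 and 14 in tumours 1 and 4 and 503, 466, 87.4 and 706 in tumours 2, 3, 5 and 6, with thymocytes at 877 to 1034. The range was at least 44.1-fold (adjusted p = 0.00658), and Txk passed with any 1 tumour left out. Lsp1, a leukocyte protein that binds actin, read 292, 469, 1019, 230.2, 673 and 1934 against 3317 to 4332 (8.4-fold, adjusted p = 0.0444). Its second probe set gave 78.5, 394, 1088, 119, 730.5 and 1038 (13.9-fold, adjusted p = 0.0188), and the 2 ran together over the tumours (r = 0.90). Leaving out tumour 1, 4 or 6 took the first Lsp1 probe set to 0.0517, 0.0725 and 0.087 and left the second below 0.05.

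Cd7 and Klk8 were near or below the floor in tumours 4 and 5. Cd7, a surface protein of T and natural killer cells, read 82.6, 181, 532, 15.7, 18.3 and 149.6 against 228 to 467 in the thymocytes (at least 33.3-fold, adjusted p = 0.0408). Klk8, a serine protease known from the brain and skin, read 54.7, 308, 277, 12.4, 11.6 and 122 against 276 to 327 (at least 19.2-fold, adjusted p = 0.0408). For both, tumours 2 and 3 were the highest and tumours 4 and 5 the lowest. The call of Cd7 rested on tumours 3 and 4 (0.0732 and 0.0618 without each) and that of Klk8 on tumours 2, 3 and 4 (0.0641, 0.0584 and 0.0532).

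Dap, a mediator of cell death and regulator of autophagy on chromosome 15, had the widest range of any named gene outside the receptor loci. It read 27.2, 1093, 6639, 153, 966 and 2346 in tumours 1 to 6 and 670.4 to 1186 in the thymocytes (244-fold, adjusted p = 0.00998). Tumours 3 and 6 lay above, and tumours 1 and 4 below, every thymocyte array, and the call was kept with any 1 tumour left out. Cytip, a protein that regulates leukocyte adhesion, read 2439, 2886, 473, 634, 677 and 2044 against 4187 to 5059 (6.11-fold, adjusted p = 0.0213). Here the split was between tumours 1, 2 and 6 and tumours 3, 4 and 5. A second Cytip probe set followed it (r = 0.99 over the tumours), with an adjusted p of 0.0811.

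In other genes 1 or 2 tumours had the lowest values by a wide gap. Rere, a nuclear receptor co-regulator, was at 15.7 in tumour 4, and at 409, 714, 720, 375 and 434 in tumours 1, 2, 3, 5 and 6, against 594 to 734 in the thymocytes (at least 45-fold for the whole range, adjusted p = 0.00875; 0.241 without tumour 4). Marcks, an actin-binding substrate of protein kinase C, was 95.5 in tumour 4 against 679.8 to 1252 in the others (adjusted p = 0.0301; 0.339 without tumour 4). Idh2, the mitochondrial isocitrate dehydrogenase, was 83 in tumour 1 against 408 to 1243 (adjusted p = 0.0213; 0.134 without tumour 1).
Nme4, a mitochondrial nucleoside diphosphate kinase, was below the floor at 13.2 in tumour 5 against 204 to 409.9 in the other tumours and 119 to 192 in the thymocytes (adjusted p = 0.0408; 0.287 without tumour 5, 0.0552 without tumour 1). Snhg6, a host gene of a small nucleolar RNA, was 173 in tumour 2 against 830 to 2711 (adjusted p = 0.0213; 0.124 without tumour 2). Slc30a4, a zinc transporter, was lowest in tumours 4 and 1, at 2.7 and 36.2, against 97.3 to 355 in the other tumours (adjusted p = 0.0408; 0.0824 without tumour 4, 0.0593 without tumour 2). Further tumours could also lie below the thymocytes, as did tumours 1, 5 and 6 for Rere and tumour 6 for Idh2, but the thymocytes overlapped the higher tumours for Rere, Marcks, Idh2, Snhg6 and Slc30a4.

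Fewer genes passed with single tumours high. Gdpd3, a lysophospholipase D, read 2402 in tumour 6 and 789 in tumour 4, against 103 to 185 in the other tumours and 179 to 189 in the thymocytes (23.4-fold, adjusted p = 0.0193; 0.0835 without tumour 6). Both high tumours were hybridized on the first day, as were the thymocytes. No other tumour was of that day, so day and tumour cannot be told apart for Gdpd3. Limma's moderated F test of day over the tumours gave it an unadjusted p of 0.000404 (adjusted p = 0.724). Ahnak, a very large scaffold protein, read 2792 in tumour 3 and 176 to 642 in the others, with thymocytes at 221 to 261 (15.9-fold, adjusted p = 0.0364; 0.149 without tumour 3, 0.0506 without tumour 4). Tumour 3 was the only array of its day, so day and tumour cannot be told apart there.
Saa3, an acute-phase protein, read 3239.6, 1359, 71.8, 783, 1221 and 1429 in the tumours and 10.6 to 27.8 in the thymocytes. All tumours were above all thymocytes, and tumour 3 was 10.9-fold below the next tumour (45.1-fold range, adjusted p = 0.0364; 0.171 without tumour 3, 0.0634 without tumour 1). Anxa2, a calcium-dependent membrane-binding protein, read 355, 1859, 363, 1252, 4496 and 3037, all below the thymocytes' 4974 to 7917 (12.7-fold, adjusted p = 0.0364; 0.0523 without tumour 1, 0.0502 without tumour 5).

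The last 2 of the 29 could not be given a gene. Probe set 99951_at read 15.6 in tumour 1 and 48.3 to 338 in the other tumours (adjusted p = 0.0391), and 100721_f_at read 2677 in tumour 2 and 82.2 to 322 in the others (adjusted p = 0.0478).

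**Figure D2:**
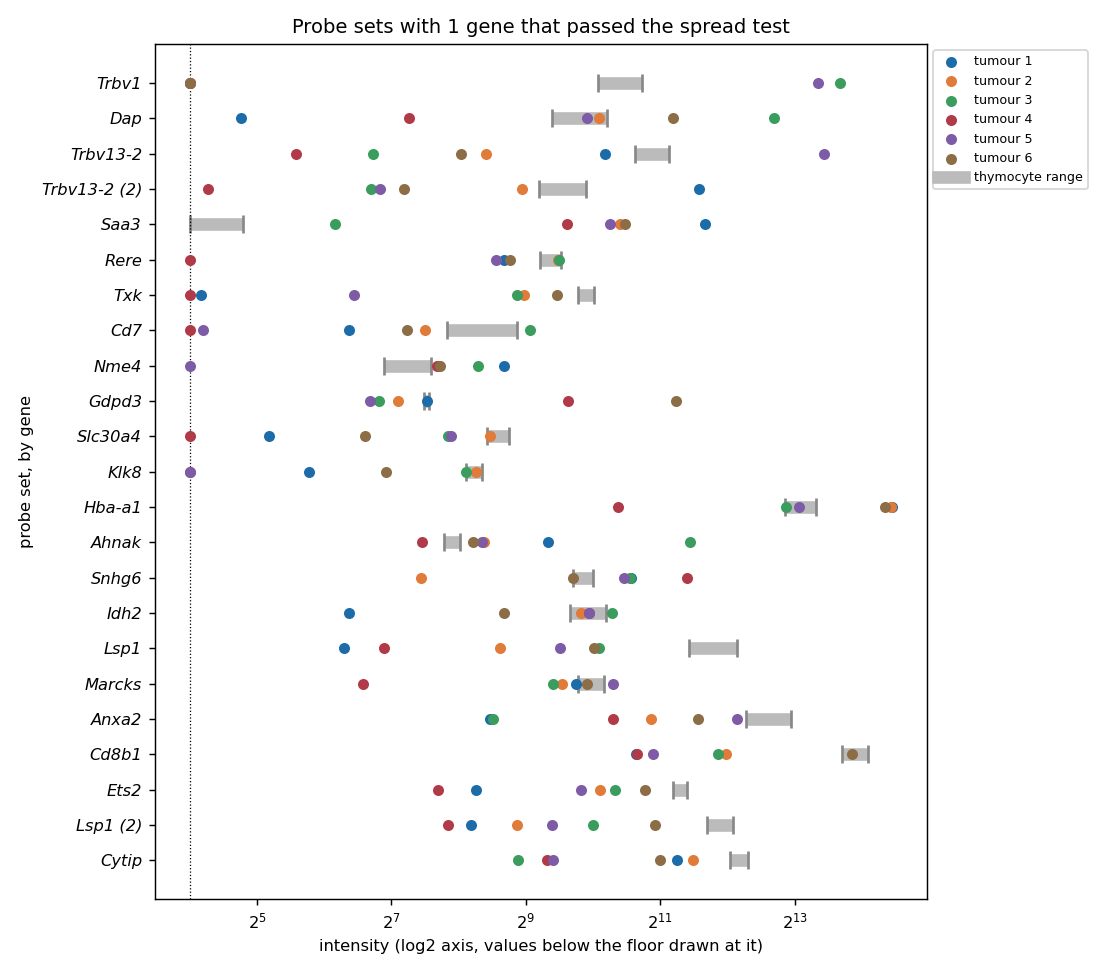
Intensity (log2 axis) of the probe sets with 1 gene that passed the spread test; points are the 6 tumours, grey bars the range of the 4 thymocyte arrays and the dotted line the floor. Trbv1 (94726_at) is at 13096 and 10390 in tumours 3 and 5 and below the floor of 16 in the other 4, and Cd8b1 of tumour 6 lies among the thymocytes.

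A large SD did not by itself pass the test, which divides the tumour variance by the moderated variance of the thymocytes. H1f10, a linker histone, read 22.9, 12.7, 1548, 91.1, 269.6 and 37.7 (SD 2.49 on the log2 scale, adjusted p = 0.0846), with thymocytes at 357 to 1176. Tnnt1, a slow-muscle troponin, read 732, 4998, 273, 793, 3038 and 7750 against 132 to 307 (adjusted p = 0.065). Usp18, an interferon-induced protease, read 4.6, 319, 377, 72.9, 571 and 198 (adjusted p = 0.0728). Ly6d, a surface protein of early lymphocytes and of double-positive thymocytes, read 5665, 435, 3603, 1081, 7003 and 1809 (adjusted p = 0.065). The wide values of these 4 genes are given as measured, without a call.

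Genes that vary together were grouped over the 200 genes with the largest SD, by average linkage on 1 minus Pearson's r over the 6 tumours, with the tree divided at 0.3. With 6 arrays a high r is easily reached, and the groups are made from the values, so they are a description with no test. The tree gave 37 groups, of which 7 had 8 or more genes and held 79 genes. Their membership rested on single tumours: at most 7 of the 20 genes of group 1 stayed together without tumour 1 or tumour 4, 2 of 13 of group 2 without tumour 2, and 4 of 11 of group 3 without tumour 4. Of group 4, 2 of 10 stayed together without tumour 3, and of group 6, 2 of 8 without tumour 4. None of group 5 stayed among the clustered genes without tumour 4, and 1 of group 7 without tumour 6. Deviations below are mean log2 values of a group's genes relative to each gene's mean over the tumours.

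Group 1 had 20 genes on 12 chromosomes (median r = 0.82) and held Cd8b1 and Ets2 of the double-positive list. These passed the spread test, as did its members Txk and Dap, and it also held Bcl6 and Ccr9, a repressor and a chemokine receptor of thymocytes, and the kinase gene Ptk2b. Its mean deviation was -2.01 in tumour 1 and -1.25 in tumour 4, -0.01 in tumour 5, and 0.96, 0.99 and 1.31 in tumours 2, 3 and 6. The thymocyte arrays lay at 1.03 to 1.2, level with the highest tumours. Bcl6 read 86.1, 267, 301, 68.5, 142 and 695 in the tumours, each below the thymocytes' 970 to 1436 (adjusted p = 0.0734).

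Group 2 was 13 immunoglobulin transcripts with a median r of 0.93, among them 10 kappa light-chain segments and Jchain, the joining chain of secreted antibody. Tumour 2 deviated by 3.08, tumour 1 by 0.63, and tumours 3 to 6 by -0.37 to -1.29. Ighg3, a secreted heavy chain, read 168, 707, 9.5, 33.3, 47.4 and 24.1, and Jchain 225, 527, 72.6, 51.8, 77.2 and 128. Igkv10-96 read 576 in tumour 2 and 37.2 or less in every other, a gap of 15.5-fold. None of the 13 passed the test, with adjusted p from 0.0837 to 0.419. Probes of related segments can read each other's transcripts. The B-cell gene Cd79a read 199, 212, 65.7, 40.2, 132 and 99.2, highest in tumour 2 with tumour 1 close to it. Ighm and Cd79b were also highest in tumour 2, at 6979 and 143. Pax5 was lowest there, at 23.8, and Cd72 was highest in tumour 5, at 375. The mean deviation of the B-cell and plasma-cell list, which includes Jchain, was highest in tumour 2, at 0.46, and was 0.33 in tumour 1.

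Group 3 joined red-cell and neutrophil genes with Ptpn13, Ppic, Itga4 and Eps15l1, which are on neither the erythroid nor the neutrophil list. Ptpn13 read 728, 592, 150, 68.8, 404.5 and 322 in tumours 1 to 6, all above the thymocytes' 33.5 to 49.5. Hba-a1, the alpha chain of haemoglobin, read 22314, 22196, 7496, 1326, 8606 and 20726 in tumours 1 to 6 and 7406 to 10191 in the thymocytes (16.8-fold, adjusted p = 0.0151; 0.104 without tumour 4). Tumours 1, 2 and 6 lay above, and tumour 4 below, every thymocyte array. Probe sets shared by beta chains (101869_s_at, adjusted p = 0.0391) and by both alpha genes (162457_f_at, adjusted p = 0.0422) also passed, and both were lowest in tumour 4, at 1556 and 401, against 7408 to 25267 and 840 to 3088 in the other tumours. Alas2, the erythroid enzyme that begins haem synthesis, followed with 638, 665, 196, 49.1, 218 and 462 (adjusted p = 0.0879), and Hbb-b2, a beta chain, with 5879, 5267, 819, 230, 1053 and 5256 (adjusted p = 0.143).
S100a8, a subunit of the calcium-binding protein abundant in neutrophils, read 417, 1132, 140, 21, 688 and 748, with thymocytes at 289 to 1258 (adjusted p = 0.145). Its partner S100a9 had 197, 576, 69.1, 10.6, 304 and 457. Ngp and Camp, proteins of neutrophil granules, had 184, 546, 30.6, 26, 289 and 376, and 434, 1003, 109, 47.2, 583 and 561. All 4 were lowest in tumour 4 and next lowest in tumour 3, and the thymocyte arrays overlapped the tumours. The neutrophil list did not all follow: its member Chil3 was highest in tumour 3, at 1069, and the list's median pairwise r was 0.41.

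The red-cell and neutrophil genes of group 3 moved together over the tumours, and their promoters are shown for the letters known from each lineage: AGATAA, a form of the site bound by GATA factors of red cells, and TTGCNNAA, a form of the site bound by C/EBP factors of myeloid cells. Both strands were searched in 300 bases, from 250 before to 50 after the annotated start, in RefSeq promoters of build GRCm38.p6. The 3 promoters that held a match are printed, with matches in capitals, the reverse complements being TTATCT and TTNNGCAA: Alas2 at chrX:150547167-150547466 on the plus strand, S100a9 at chr3:90695672-90695971 on the minus strand, and Ngp at chr9:110419558-110419857 on the plus strand.
Alas2: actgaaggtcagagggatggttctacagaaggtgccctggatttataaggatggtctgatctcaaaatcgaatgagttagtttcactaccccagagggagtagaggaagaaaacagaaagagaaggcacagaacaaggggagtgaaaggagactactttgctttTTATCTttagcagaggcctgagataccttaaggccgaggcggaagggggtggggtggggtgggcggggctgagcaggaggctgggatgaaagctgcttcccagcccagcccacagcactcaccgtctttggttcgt
S100a9: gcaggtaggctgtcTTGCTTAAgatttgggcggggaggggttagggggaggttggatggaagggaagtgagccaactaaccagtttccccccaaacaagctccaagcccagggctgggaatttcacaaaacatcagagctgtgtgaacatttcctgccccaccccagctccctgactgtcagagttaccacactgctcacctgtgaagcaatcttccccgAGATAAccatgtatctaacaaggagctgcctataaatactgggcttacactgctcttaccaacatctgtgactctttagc
Ngp: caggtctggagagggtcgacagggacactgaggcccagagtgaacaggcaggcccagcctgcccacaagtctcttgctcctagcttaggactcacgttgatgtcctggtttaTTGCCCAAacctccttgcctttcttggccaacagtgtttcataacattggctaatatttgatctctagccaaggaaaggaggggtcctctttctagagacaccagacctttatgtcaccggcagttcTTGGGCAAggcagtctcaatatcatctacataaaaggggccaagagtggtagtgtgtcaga
Alas2 held 1 AGATAA, S100a9 held 1 of each motif and Ngp held 2 matches to TTGCNNAA. Hba-a1, S100a8 and Camp held neither in this window. Of 9 genes of group 3 with a promoter in the table, 2 held AGATAA and 2 held TTGCNNAA (22.2% each), and of all 27025 promoters 11.4% and 10.8% did. No printed match of one motif overlapped one of the other, and a match is a description of the sequence only.

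Groups 4 to 7 were smaller. Group 4 (10 genes, median r = 0.86) was highest in tumour 3, at 1.98, and lowest in tumours 4 and 5, at -1.51 and -1.15, and held Cd7, Klk8 and Ahnak with the B-cell and thymocyte kinase gene Blk, which read 147, 431, 931, 96.5, 127 and 248. Group 5 (9 genes, median r = 0.84) was low in tumour 4, at -2.59, and at 0.18 to 0.77 elsewhere. It held Rere and Marcks, and Lag3, an inhibitory receptor, with 133, 122, 246, 5.9, 66.4 and 91.
Group 6 (8 genes, median r = 0.88) was low in tumour 4, at -2.07, and highest in tumour 3, at 1.67, and held Slc30a4 and 2 scaffold genes, Dlg3 and Dlg4. Group 7 (8 genes, median r = 0.83) was low in tumour 6, at -2.47, and highest in tumour 1, at 1.39. Its member Mtmr9, a regulatory subunit of phosphoinositide phosphatases, read 1511, 1174, 1042, 1551, 1273 and 169, with thymocytes at 116 to 202. The 5 high tumours lay above, and tumour 6 among, the thymocytes, and a second Mtmr9 probe set followed (r = 0.92). None of group 7 passed the test, with adjusted p from 0.0815 to 0.435.

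**Figure D3:**
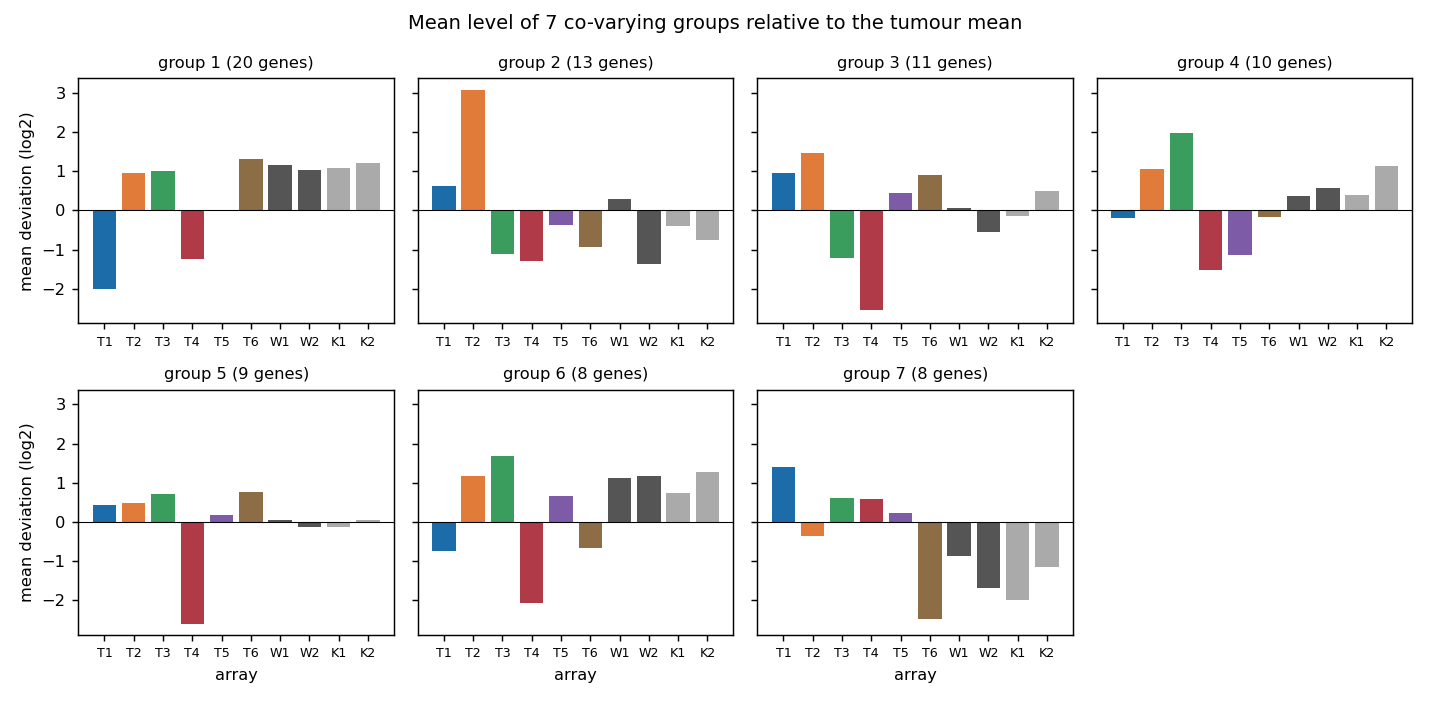
Mean log2 deviation of each of the 7 groups of genes that vary together, with a bar for each array: tumours T1 to T6, wild-type thymocytes W1 and W2 and IkL/L thymocytes K1 and K2. Group 2 stands out in tumour 2 at 3.08, group 5 in tumour 4 at -2.59 and group 7 in tumour 6 at -2.47.

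Read by function, 28 of 33 gene lists had a median SD between tumours above that of all genes. Most of the 33 also had a median SD between thymocyte arrays of 1 genotype above the 0.24 of all genes. Neutrophil granule genes had the largest median SD between tumours among the cell type lists, 1.64 over 9 tested genes, but thymocyte arrays also varied there, by 0.96. Erythroid genes, whose sum is nearly all haemoglobin, had summed intensities of 29403.5, 28913, 9107, 2147, 10501 and 27269 against 9087 to 13157 in the thymocytes. Other members did not all follow: Klf1, an erythroid transcription factor, read 31.4, 116.6, 77.9, 159.5, 93.2 and 131, highest in tumour 4 and lowest in tumour 1. B-cell and plasma-cell genes summed to 5749, 9840.5, 4935, 7126, 3234 and 2788 against 6363 to 8824.5. Monocyte and macrophage genes summed to 13904.5 to 28024 in the tumours and 6256 to 7301 in the thymocytes, so that every tumour was above every thymocyte array. Their median SD, 0.44, was near that of all genes. Thymic epithelial genes summed to 469 to 1213 against 1690 to 5614.5. Krt8, an epithelial keratin, was at 14.5 to 88.6 in the tumours and 139 to 451 in the thymocytes.

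The smallest median SDs were those of genes of protein synthesis and turnover, whose thymocyte arrays also varied little (0.14 for both lists). Ribosomal protein genes had a median SD of 0.21 and 18 of 20 tested genes spanned less than 2-fold, as did 48.2% of all genes. Proteasome subunits had a median SD of 0.23, with 23 of 27 under 2-fold, and oxidative phosphorylation genes 0.32, with 33 of 41. The ribosomal genes outside 2-fold were Rpl32 and Rps19. The Rpl32 probe set was dim, at 292 in tumour 6 and 7.7 to 35.7 in the others, 3 of them below the floor (adjusted p = 0.267 in the spread test). Rps19 was bright, at 3612 to 11478 in the tumours (3.18-fold, adjusted p = 0.174). No ribosomal, proteasome or oxidative phosphorylation gene passed the spread test, and 1, 5 and 8 of them reached an unadjusted p below 0.05 (5%, 18.5% and 19.5%). The share over all genes was 20.1%, so that proteasome and oxidative phosphorylation genes did so about as often as genes at large.

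**Figure D4:**
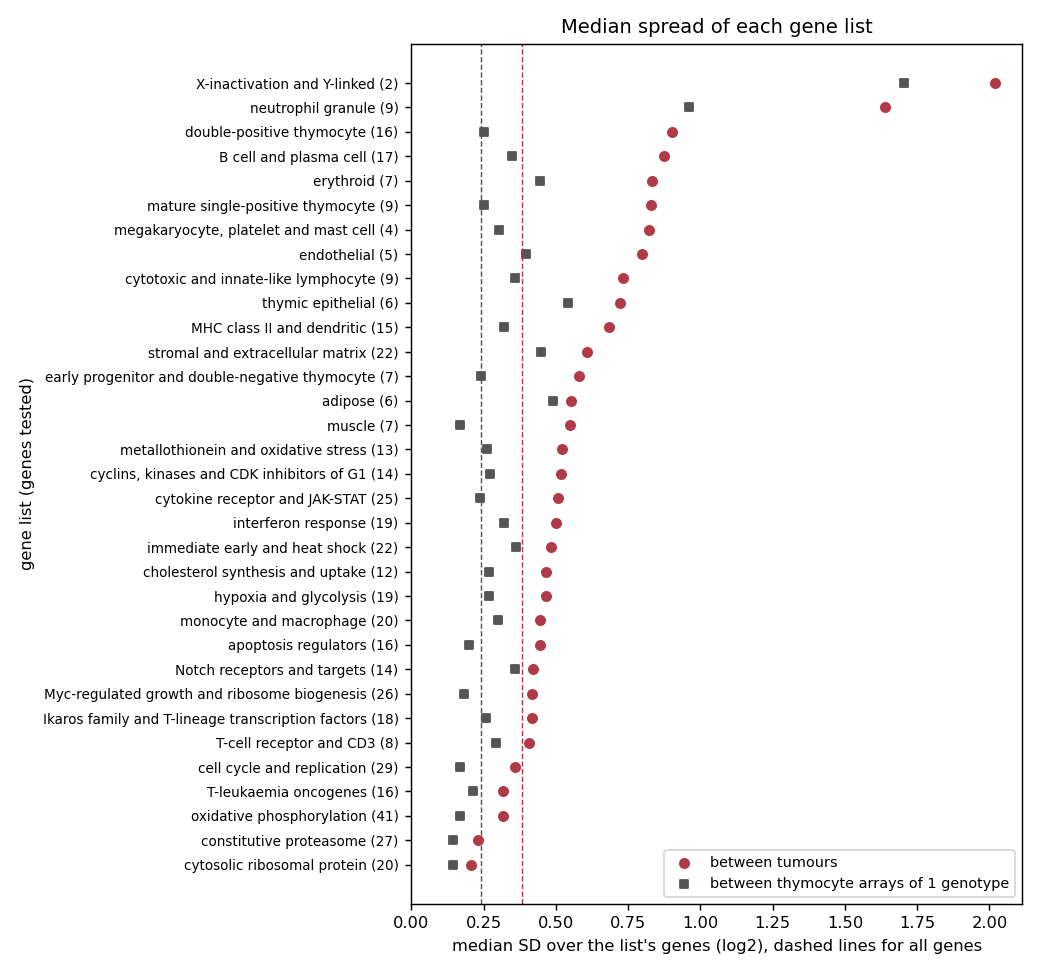
Median SD of log2 intensity between tumours for each gene list, beside the median SD between thymocyte arrays of 1 genotype; dashed lines mark all genes, at 0.383 for tumours and 0.24 for thymocytes. Neutrophil granule and double-positive thymocyte genes lie at 1.64 and 0.90, ribosomal protein genes at 0.21.

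Many genes of cell division shifted together, though not all. Of 29 tested cell cycle and replication genes, 11 reached an unadjusted p below 0.05 (37.9%, against 20.1% of all genes) and none the adjusted one. Their median pairwise r over the tumours was 0.66, against 0.00453 for all gene pairs. Tumours 4 and 5 deviated by 0.39 and 0.24, and tumours 1, 3 and 6 by -0.22 to -0.25. Rrm1, the large subunit of ribonucleotide reductase, read 1506, 1853, 1929, 3151, 2832 and 1100, and Mcm7, a helicase subunit of replication, 2306, 3114, 3031, 4526, 4012 and 1677. Other members ran differently: Ccnb2 was lowest in tumour 5, at 3493.5, and highest in tumour 6, at 5867.5. Foxm1 was highest in tumour 1, at 1105. Genes of ribosome biogenesis and Myc-driven growth had a median r of 0.54, again with tumour 4 high, at 0.45. Gnl3, nucleostemin, read 772, 683, 567, 1304, 916 and 310.1 (adjusted p = 0.143). Proteasome and oxidative phosphorylation genes were also highest in tumour 4, with mean deviations of 0.32 and 0.26.

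Of 14 tested Notch receptors and targets, 6 lay above the thymocytes in all 6 tumours, against 5.51% of all genes, 1 (Ccnd3, a cyclin) lay below, and 7 overlapped: Il2ra, Notch2, Hey1, Numb, Hes6, Gata3 and Rbpj. Notch1 read 5481, 4719, 7296, 5054, 5387 and 4052 in tumours 1 to 6, and 1390 to 1826 in the thymocytes. Hes1, a direct Notch target and repressor, read 849, 946, 880.1, 609.5, 845 and 816 against 163 to 258. Dtx1, another target, read 4493, 4551, 6298, 3415, 2969 and 3457 against 239 to 596. All 6 tumours lay above all 4 thymocyte arrays for each of the 3, while the tumours spanned 1.8-fold, 1.55-fold and 2.12-fold.
Notch3 read 1400, 1192, 1183, 563, 1168 and 1681 against 341 to 544, with tumour 4 close to the highest thymocyte array. Myc, a target of Notch1 in T-cell leukaemia, read 602, 736, 641, 753, 724 and 462 against 174 to 262 and spanned 1.63-fold. Ptcra, the alpha chain of the pre-T-cell receptor, read 1263, 1492, 2287, 981, 1675 and 1523 against 467 to 770.5. For Notch3, Myc and Ptcra too, every tumour lay above every thymocyte array.

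Across all genes, 302 lay above and 302 below the thymocytes in all 6 tumours (5.51% each), and 168 and 140 of these also spanned under 2-fold between tumours (3.07% and 2.56%). These were selected on their values and carry no test. The 12 with the largest mean difference above included Lilr4b (at least 5.87-fold), an inhibitory receptor of myeloid cells, Sbf2 (5.11-fold), Inppl1 (4.08-fold), an inositol phosphatase, Hes1 (4.05-fold), Pltp (3.81-fold), a phospholipid transfer protein of plasma, Notch1 (3.32-fold), C1qa (3.06-fold), a complement chain made by macrophages, Myc (2.99-fold) and Bzw2 (2.86-fold). Bzw2 read 4296, 5348, 4103, 4703, 3827 and 3882 against 1162 to 1809.

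The 12 below included Tdrp, at 7.1 to 29.9 in the tumours and 267 to 408 in the thymocytes (at least 16.0-fold), and Traf1, an adaptor of tumour necrosis factor receptors, below the floor in all 6 tumours and at 56.5 to 130 in the thymocytes (at least 6.45-fold). Krt18, the keratin partner of Krt8, was 4.41-fold lower. T-cell genes followed: Sit1 (2.73-fold), an adaptor that dampens receptor signals, the kinase gene Tec (2.28-fold), and the receptor gene Tnfrsf18 (2.30-fold). Trav9d-3, a variable segment of the alpha chain, read 4261, 5646, 5585, 3255, 3260 and 4886 against 11869 to 12972. It spanned 1.73-fold between tumours. Among genes over 1000 that overlapped the thymocytes, Srrm1, a splicing co-activator, varied least, with 2406 to 2738 in the tumours and 2296 to 2651 in the thymocytes. Pdcd6ip and Kif22 spanned 1.12-fold and 1.15-fold, and the immunoproteasome subunit Psmb8 1.19-fold.

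Single tumours also had genes of their own. By Dixon's ratio, 404 of 5476 genes (7.38%) had 1 tumour apart from the other 5, and chance gives about 5%. Tumour 6 was that tumour for 150 genes and tumour 4 for 93, and tumours 1, 3, 5 and 2 for 54, 51, 29 and 27. The genes with the widest gaps are named below, chosen on their values and so without a test.

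In tumour 1, Dlg1, a scaffold of T-cell polarity, read 1998 against 391 to 555, and Gpx3, an extracellular glutathione peroxidase, 668 against 145 to 224. In tumour 2 the 5 widest gaps above were all immunoglobulin segments. In tumour 3, Chil3, a protein of activated macrophages and of neutrophils, read 1069 against at most 218, and Itgae, an integrin of lymphocytes within epithelium, 123 against at most 23.9. For Itgae, 3 of the thymocyte arrays read 107 to 118, close to tumour 3.
Tumour 4 had small gaps above, of 2.14-fold to 2.21-fold, among them Rnps1, a protein of the exon junction complex, which read 4349 against 1400 to 1971. In tumour 5, Laptm4b, a lysosomal membrane protein, read 1584 against 112 to 553, and Cd93, a marker of early progenitors and endothelium, 738 against 44.4 to 277. Pla2g12a, a phospholipase, was 412 in tumour 5 against 2186 to 2725. In tumour 6, Cd40, a receptor of antigen-presenting cells, read 177 against at most 33.9, and Sirpa, a receptor of myeloid cells, 16.4 against 129 to 267. A second Sirpa probe set did not set tumour 6 apart, with 51.6 there and 31.5 in tumour 3 (r = 0.54).

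Il7r, the interleukin-7 receptor of early T cells, was highest in tumour 1, with 1462, 187, 412, 482, 745 and 362 against 197 to 320.4 in the thymocytes (adjusted p = 0.0815). Il2ra, a marker of the later double-negative stage, read 529, 101, 85.9, 169, 125 and 257 (adjusted p = 0.505). Lyl1, a transcription factor of early progenitors, was highest in tumour 5, with 259, 172, 122, 109, 657 and 355 (adjusted p = 0.156). Each was highest in another tumour than the mean of the double-positive list, which was highest in tumour 6. Gzma, a granzyme, read 1125, 2069.6, 1959, 2479, 2611 and 723 against 320 to 506, above the thymocytes in all 6. Class II genes split the tumours otherwise: H2-Aa read 163, 948, 469, 463, 116 and 75.1 (adjusted p = 0.0815) against 744 to 1283, and its invariant chain Cd74 591, 2267, 1108, 1105, 368 and 276 against 1283 to 3388.

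Xist, the RNA that coats the inactive X of females, and the Y-linked gene Eif2s3y also differed between the tumours. Neither reached an unadjusted p below 0.05 in the spread test. Their median SD was 2.02 between tumours and 1.70 between thymocyte arrays of 1 genotype. Xist read 327, 171, 5.7, 89.4, 6.2 and 12.9 in tumours 1 to 6, and Eif2s3y 18.6, 22.2, 427, 2.1, 267 and 94.7. Tumours 1, 2 and 4 were thus the 3 highest for Xist, and tumours 3, 5 and 6 the 3 highest for Eif2s3y. Of the thymocytes, WT array 1 had Xist at 94.4 and Eif2s3y at 27.6, and the other 3 had Eif2s3y at 336 to 536. The split of tumours 1, 2 and 4 from tumours 3, 5 and 6 was not that of the double-positive list, whose mean was highest in tumours 6, 3 and 2.

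By chromosome, the largest shift was on chromosome 15. Each gene's log2 value was set against its median over the 6 tumours, and each chromosome's median against the tumour's own median over 5467 placed genes. For the 228 tested genes of chromosome 15 this was 0.18 in tumour 2 and 0.16 in tumour 5, and -0.07 to -0.10 in the other 4. Other chromosomes ranged from -0.071 to 0.072 in tumour 2 and from -0.033 to 0.044 in tumour 5. The shift was spread along the chromosome: with its genes divided by position into 3 parts of 76 genes, medians were 0.19, 0.17 and 0.18 in tumour 2 and 0.23, 0.15 and 0.098 in tumour 5. For 56 of the 228 genes (24.6%), tumours 2 and 5 both lay above the other 4, against 225 of 5239 genes (4.29%) elsewhere. Over all chromosome 15 genes, the medians of tumours 2 and 5 were on average 1.2-fold those of the other 4. Myc, which lies on chromosome 15, read 736 and 724 in tumours 2 and 5, and 753 in tumour 4, and so did not single them out. The next shift was chromosome 1 in tumour 6, at 0.12, where tumour 6 was the highest for 98 of 290 genes (33.8%) against 24.7% elsewhere. These medians carry no test, and DNA copy number was not measured.

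**Figure D5:**
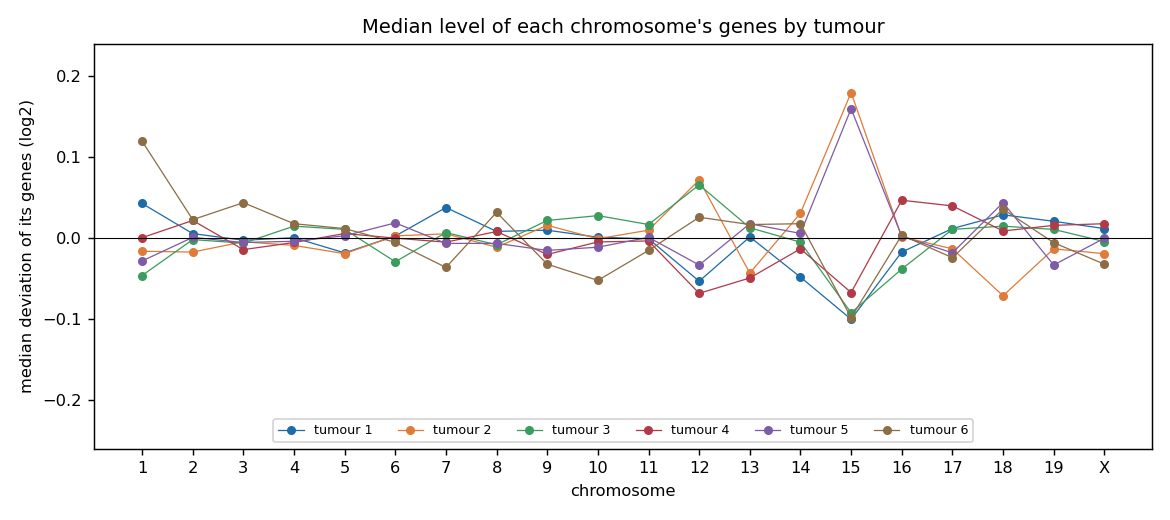
Median log2 deviation of each chromosome's genes in each tumour, relative to that tumour's median over all placed genes. Chromosome 15 lies at 0.18 in tumour 2 and 0.16 in tumour 5, outside the range of their other chromosomes.

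Hybridization day was tested over the 6 tumours with limma's moderated F test of 3 days. None of 7172 probe sets passed an adjusted p of 0.05 (0% called) and 247 reached an unadjusted p below 0.05, or 3.44%. Gdpd3, Ahnak and Saa3 were among these, with unadjusted p of 0.000404, 0.00058 and 0.000227. With the tumour variance taken within days, 40 probe sets passed the spread test, 25 of them among the 29, and over the 3 tumours of the second day alone 13 passed, 12 of them among the 29. Tumours 1, 2 and 5 shared lot and day, and Trbv1 (94726_at), at the floor in tumours 1 and 2 and at 10390 in tumour 5, differed among them by at least 649-fold.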

How the data were processed

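The authors deposited 1 intensity per probe set and array, scaled to a trimmed mean of about 300 on each array; the scaling software is not given in the sources used here. Hybridization day, run and chip lot were taken per the file headers. Of 12488 probe sets, 66 controls were left out; 10855 had 1 gene symbol in the platform's annotation, 396 several and 1237 none, and 10839 matched the GRCm38.p6 gene table. A gene was read from its probe set of highest mean over the 10 arrays unless another is named. No pair of arrays held identical values.

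From these values, in R 4.3.3, variances of thymocytes within genotype were moderated with a trend by limma 3.58.1 (2 residual and 4.1 prior degrees of freedom) for the spread test, and day was tested with limma. Scripts were tested on simulated data. Genes, groups and gene lists were chosen with earlier results of these data known. Named were the genes of largest spread, those most alike, those apart in 1 tumour, the most variable list members, the genes most correlated within a group, and a fixed set of T-cell, Notch and blood genes. Trbv1, Lsp1, Cytip, Anxa2 and the probe sets without a single gene fell outside these and were named, after their values were seen, because they passed. Alternatives varied the floor, pseudocount (32), scaling, filter, moderation and arrays used. The number of arrays limits the precision.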

Additional observations from a re-analysis of the deposited data

Results flagged for a closer look

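In 7 results, 1 tumour stood apart by Dixon's ratio, the gap to the nearest tumour over the range of all 6, which passed its 95% critical value. Of 48 genes examined 5 did so, and of 33 list means 2; chance gives about 5% of either. Rere was low in tumour 4 (ratio 0.829). Igkv10-96 was high in tumour 2 (0.765) and Saa3 low in tumour 3 (0.627). Notch3 and Hes1 were low in tumour 4 (0.668 and 0.662), at 563 and 609.5, although Notch1 of tumour 4, at 5054, lay among the other tumours. The mean of an adipose list stood apart in tumour 3 (0.644) and that of a cytokine receptor and JAK-STAT list in tumour 4 (0.712). Tumour 4, with 3 genes and 1 list, also had the lowest median intensity and the most probe sets below the floor; the part of this in these results was not tested.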

How the results depend on the processing

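The count of probe sets past the spread test, 29, moved with nearly every choice. It was 57 with the floor at the 10th percentile, 3 at the 30th, 104 with a pseudocount of 32 in place of the floor, 131 with probe sets above the median on 6 arrays (fewer tested), 710 with no filter (more low probe sets tested), 129 with no thymocyte array at the floor, 2 when moderated without a trend, 7 when not moderated, 13 over the tumours of day 2 only and 17 over tumours 1, 2, 3 and 5, the last chosen after seeing the data. Except without moderation, where none of the 29 passed, and with no filter, where 19 did, these settings either added calls or kept a part of the 29; the cause was not tested. It was 27 after quantile normalization, 40 within days, and 23 without immunoglobulin, haemoglobin and T-cell receptor genes (added later). Leaving out 1 array gave 2 to 27. Of settings for each gene, Trbv1 (94726_at) passed 21 of 22, Trbv13-2 19 of 23, Dap 18 of 24 and Cd8b1 13 of 24. Leaving out 1 array gave 2639 to 3401 genes alike in the tumours, 200 to 359 of them above and 173 to 283 below the thymocytes, since fewer values have to agree. It gave 25 to 28 lists above the median of all genes, and 9 to 13 groups of genes that vary together, against 3 with 100 genes and 4 with the tree divided at 0.2. The small difference between pairs of different and of 1 day turned sign with 1 minus Pearson's correlation (0.00525, exact permutation p = 0.767), quantile normalization (0.000692, p = 1) and without tumour 6 (0.023, p = 0.6). Chromosome 15 of tumour 5 was 0.19 with probe sets above the median on 6 arrays, and relative to the thymocyte mean chromosome 15 was 0.3 in tumour 2 and 0.31 in tumour 5 and chromosome 1 of tumour 6 was 0.16, all chosen after seeing the data. Of gene values 1175 stayed on their side of the threshold, 207 lost and 27 gained it. Of list medians 517 stayed within a fixed fold limit of the main value and 10 moved. The day test called 0 probe sets under every setting run, with 184 to 524 at an unadjusted p below 0.05. No paired analysis was possible because the replicates were numbered by order of deposition only. Signal near the floor limits the ranges of low probe sets, and 4 thymocyte arrays limit every call.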
